A study of Mus musculus with 18 samples.

Results

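The polo-like kinases Plk2 and Plk3, the 3 Gadd45 genes (Gadd45a, Gadd45b and Gadd45g), the cell cycle inhibitor Cdkn1a, the antiproliferative genes Btg1 and Btg2 and the immediate early gene Ier3 were examined in brown adipocytes in which lipolysis was switched on or blocked. These 9 genes, of 20295 in the count table, were taken by name. They were chosen by the measured induction of Plk3, which ranked among the largest that lipase inhibitors removed, so the values of Plk3 are given as a description and were not tested, whereas the other 8 genes were tested within fits over all genes.

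RNA was sequenced from BAT-LgT cells, a single line of mouse brown preadipocytes (genotype WT) immortalised with the SV40 large T antigen and differentiated in culture for 7 days. Cells without inhibitors were exposed for 3 h to Vehicle (DMSO), to 100 nM isoproterenol (ISO), an agonist of β-adrenergic receptors, or to SR-3420, a ligand of ABHD5 that activates the triglyceride lipase ATGL without a receptor signal. The labels give 10 µM SR-3420 and the study's text another dose, and which applied to these libraries was not settled here. Cells of the Lipase Inh. + Vehicle group received inhibitors of ATGL and HSL for 1 h before DMSO. The same pretreatment preceded ISO in Lipase Inh. + ISO, and SR-3420 in the group named Lipase Inh. + SR-3420. Each of the 6 groups held 3 libraries, from independent experiments by the study's account.

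Proteins of these families couple stress signals to the cell cycle, to DNA repair and to cell survival. Cdkn1a encodes p21, which binds and inhibits cyclin-dependent kinases. GADD45 proteins bind p21, PCNA and upstream kinases of the p38 and JNK cascades, while BTG proteins bring the CCR4-NOT deadenylase to messenger RNAs. Plk2 and Plk3 are stress-responsive relatives of the mitotic kinase Plk1, and Ier3 encodes a short-lived protein of the immediate early response that acts on cell death and ERK signalling. Several of these genes are targets of p53, a protein that large T antigen binds, which limits this line as a model of growth arrest. In brown adipocytes, β-adrenergic signals also act through cAMP and CREB, whose binding element is the palindrome TGACGTCA.

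The 250 bases before the annotated start of each gene were searched on both strands for 8 motifs in build mm9, where annotated starts lay 0 to 35 bp from a start in the GENCODE annotation. The windows of Plk3, Btg2, Plk2 and Gadd45g are shown because the results below turn on these genes, and because a cAMP response element, its short core TGACG or a C/EBP-ATF response element (TTGCATCA, an element bound by ATF4 and CHOP) was found in each. Capitals mark those matches, and every window is written on the strand of its gene. This choice favours windows with a match. Cdkn1a and Ier3, on which the results turn as well, held none of these elements and are not shown. Btg1 held the core TGACG and is not shown either. No link between a match and a response was tested. The windows lie at chr4:116806558-116806807 (minus strand) for Plk3, chr1:135975733-135975982 (minus strand) for Btg2, chr13:111185002-111185251 (plus strand) for Plk2 and chr13:51941794-51942043 (plus strand) for Gadd45g.
Plk3: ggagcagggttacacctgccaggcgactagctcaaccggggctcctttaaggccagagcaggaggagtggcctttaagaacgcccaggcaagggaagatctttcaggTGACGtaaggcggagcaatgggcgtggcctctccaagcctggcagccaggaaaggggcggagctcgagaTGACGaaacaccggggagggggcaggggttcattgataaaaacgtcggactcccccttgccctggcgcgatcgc
Btg2: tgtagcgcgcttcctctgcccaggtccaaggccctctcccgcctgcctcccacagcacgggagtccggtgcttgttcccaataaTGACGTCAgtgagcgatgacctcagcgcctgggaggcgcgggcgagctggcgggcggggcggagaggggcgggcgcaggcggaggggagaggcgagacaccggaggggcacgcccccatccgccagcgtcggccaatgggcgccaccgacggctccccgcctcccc
Plk2: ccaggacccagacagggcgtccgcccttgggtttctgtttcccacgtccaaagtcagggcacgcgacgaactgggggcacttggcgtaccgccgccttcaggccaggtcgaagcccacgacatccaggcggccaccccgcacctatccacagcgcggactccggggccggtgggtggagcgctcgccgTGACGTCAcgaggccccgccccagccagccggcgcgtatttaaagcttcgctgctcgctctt
Gadd45g: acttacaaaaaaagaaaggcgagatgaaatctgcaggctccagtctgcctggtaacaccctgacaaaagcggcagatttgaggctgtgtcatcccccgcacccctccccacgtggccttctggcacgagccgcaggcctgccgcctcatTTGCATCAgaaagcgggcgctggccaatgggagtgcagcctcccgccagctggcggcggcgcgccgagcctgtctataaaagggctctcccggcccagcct

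The full element TGACGTCA was present in the windows of Plk2 and Btg2 and in 2.14% of the 20292 windows that could be read. The core TGACG, which each full element holds on both strands, was present in Plk2, Plk3, Btg1 and Btg2 and in 21.2% of all windows. In Plk3, the first letter of each core lay 143 and 74 bases before the start, whereas the full element began 166 bases before the start of Btg2 and 62 before that of Plk2. The C/EBP-ATF element was present in Gadd45g alone among the 9 genes and in 0.631% of all windows. The AP-1 site TGANTCA (5.91% of all windows) was in none of the 9 windows. The E-box CACGTG (6.92%) was in those of Gadd45b and Gadd45g, the TATA box TATAAA (11.8%) in those of Gadd45b, Gadd45g and Btg1, the CCAAT box (35.5%) in 6 and the GC box GGGCGG (45.5%) in 7. These matches describe letters in a window and not sites of binding.

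Of the 18 libraries, 17 held 10310447 to 21205032 counts. Lipase Inh. + SR-3420 replicate 2 held 4263755 counts, of which 18.3% came from Lars2 (95% Wilson interval from 18.3% to 18.4%, counting error only), against at most 0.121% elsewhere. Several results that rest on this library are also given without it. Together, the 9 genes took 0.169% to 0.370% of a library's counts. All 12 brown adipocyte markers passed the filter on low counts, with summed levels of 9688 to 15690 CPM (counts scaled to a common library size by TMM factors), whereas the summed markers of macrophages, endothelium and skeletal muscle reached at most 6.30, 0.631 and 2.55 CPM. In Vehicle, the largest means among the 12 were those of Adipoq (3593 CPM), Fabp4 (2603), Pnpla2 (2108) and Lipe (1804). Mean Ucp1 was only 2.69 CPM in Vehicle and 364 in ISO, and mean Elovl3 was 4.34 and 55.7 CPM. Ppargc1a (75.7 CPM) and Prdm16 (29.5) were higher than these 2 genes in Vehicle. The brown adipocyte sum is thus no measure of brown identity in each group. Preadipocyte and fibroblast markers summed to between 89.6 and 139 CPM. All 9 genes passed the filter, which left 12156 genes to test.

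The basal level of these genes was compared per kilobase of counted length (RPKM) in Vehicle cells. Btg1 had 242 RPKM ± 10.4 (SD, n = 3) and Cdkn1a 159 ± 20.8. Gadd45a (50.7 ± 7.30), Gadd45g (46.6 ± 5.30) and Btg2 (40.3 ± 4.35) formed a middle range. Below these lay Ier3 at 15.4 ± 1.09, Gadd45b at 11.1 ± 2.94 and Plk2 at 4.05 ± 0.679. Plk3 had the lowest level of the 9 genes, 0.478 ± 0.115 RPKM, and its counts went down to 10 in a library.

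Plk3 (minus strand, chr4:116801260-116806557) encodes a polo-like kinase activated by DNA damage and other stress. In Vehicle, its level was 1.01, 1.39 and 0.882 CPM in replicates 1 to 3. ISO gave 28.0, 34.8 and 21.4 CPM, and SR-3420 gave 34.1, 44.8 and 30.6 CPM. All 6 stimulated libraries without inhibitors lay far above the Vehicle libraries, and the ISO and SR-3420 ranges overlapped. With inhibitors, the level was 2.19, 2.47 and 2.20 CPM under Vehicle, 1.98, 1.28 and 2.03 CPM under ISO and 3.87, 2.93 and 2.23 CPM under SR-3420. Each of these 9 libraries was thus below every library of the ISO and SR-3420 groups. The group means spanned 33.4-fold, with Vehicle lowest and SR-3420 highest. The gene overlaps Tctex1d4 on the other strand by 76 bp, and that neighbour had 0 to 7 counts per library.

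Plk2 (plus strand, chr13:111185252-111191051), a related kinase known for roles in centriole duplication and at synapses, followed another order. Its level was 13.0, 9.27 and 11.7 CPM in Vehicle and 12.005, 14.5 and 16.1 CPM in ISO. With SR-3420, it was 19.0, 27.2 and 22.3 CPM without inhibitors and 25.9, 26.9 and 26.7 CPM with them. These 2 SR-3420 groups overlapped each other and lay above the other 4 groups, whose neighbours in the order overlapped.

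Gadd45a (minus strand, chr6:66985090-66987401), a p53 target, was lower wherever ISO was present. Vehicle gave 58.3, 45.2 and 46.5 CPM and ISO gave 34.8, 30.5 and 36.1 CPM. Lipase Inh. + Vehicle gave 63.2, 51.1 and 73.4 CPM, and Lipase Inh. + ISO gave 11.7, 10.3 and 12.1 CPM, the lowest values of the series for this gene. Neither ISO group overlapped any other group, and the 2 SR-3420 groups, at 53.8 to 60.8 and 62.1 to 71.5 CPM, were among the neighbours that overlapped.

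Gadd45g (plus strand, chr13:51942044-51943843), a family member inducible by cytokines and stress, had the opposite pattern under ISO. Its level was 56.4, 49.5 and 45.1 CPM in Vehicle and 218, 218 and 219 CPM in ISO. Inhibitors left similar values under ISO, at 201, 232 and 207 CPM, against 44.3, 42.6 and 43.8 CPM in Lipase Inh. + Vehicle. SR-3420 gave 130.2, 148 and 122 CPM alone and 55.2, 47.2 and 57.4 CPM with inhibitors. The SR-3420 group stood alone between both ISO groups above it and 3 groups at 42.6 to 57.4 CPM below it. Gadd45b (plus strand, chr10:80392836-80394949), known as a target of NF-κB and TGF-β signals, ranged from 9.78 to 19.3 CPM over the 18 libraries, and each group overlapped its neighbours in the order.

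Cdkn1a (plus strand, chr17:29227931-29237667) was at 332, 330.1 and 262 CPM in Vehicle. ISO gave 846, 999.5 and 719.8 CPM and SR-3420 gave 894, 991 and 837 CPM. In Lipase Inh. + ISO it was still at 703, 802 and 627 CPM, whereas Lipase Inh. + SR-3420 gave 361, 375 and 329 CPM, within the range of 262 to 388 CPM of the 2 Vehicle groups. The libraries therefore fell into 3 high groups that overlapped in order and 3 low ones that overlapped too.

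Btg2 (minus strand, chr1:135971442-135975732) encodes a deadenylation cofactor and is a p53 target. Vehicle gave 126, 137 and 109.9 CPM, ISO 399, 557 and 285 CPM and SR-3420 748, 911 and 744 CPM. The 4 groups other than ISO and SR-3420 lay between 108 and 141 CPM, and ISO and SR-3420 overlapped neither these nor each other. Btg1 (plus strand, chr10:96079635-96085445), its close relative, had a narrower range from 808 to 1647 CPM. Lipase Inh. + ISO was lowest (891, 808 and 999 CPM), and ISO (1536 to 1566 CPM) and SR-3420 (1458 to 1647 CPM) were highest and overlapped.

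Ier3 (plus strand, chr17:35958658-35959856) was at 17.6, 17.3 and 15.4 CPM in Vehicle, 78.2, 93.1 and 61.8 CPM in ISO and 68.3, 77.6 and 60.4 CPM in SR-3420. With inhibitors, ISO gave 24.8, 34.3 and 23.4 CPM, above the 15.2 to 19.7 CPM of Lipase Inh. + Vehicle and Lipase Inh. + SR-3420 and below both groups without inhibitors that received an agent.

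**Figure D1:**
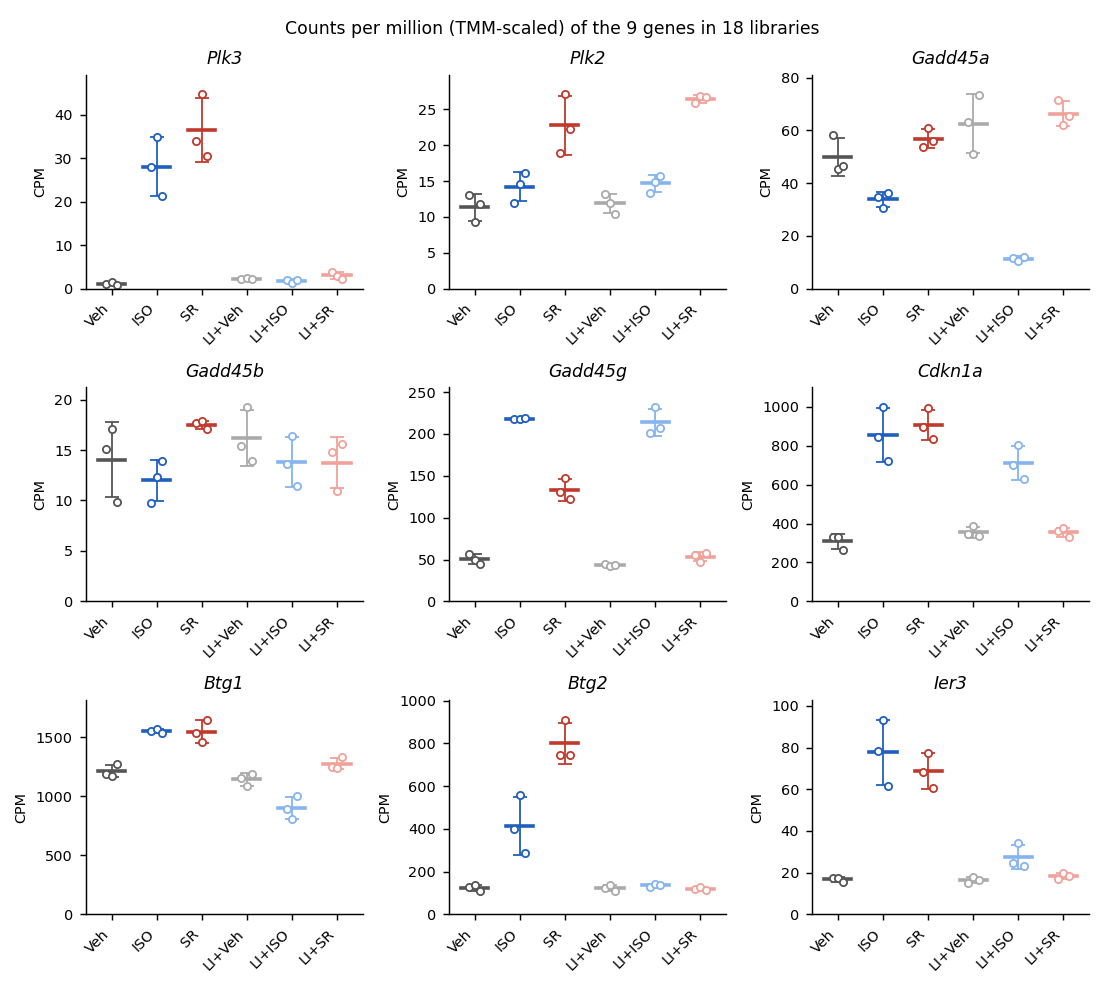
Level of each of the 9 genes in CPM (linear axes from 0) for the 6 groups, with points for the 3 libraries, thick bars for the mean and whiskers for 1 SD (Veh, Vehicle; SR, SR-3420; LI, lipase inhibitors). Plk3, Btg2 and Ier3 were high in ISO and SR-3420 without inhibitors, Gadd45g and Cdkn1a also in ISO with inhibitors, and Plk2 in both SR-3420 groups.

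ISO was first set against Vehicle to show the response to a β-adrenergic signal. Gadd45g, Cdkn1a, Btg2 and Ier3 rose, Btg1 rose by a small amount, and Gadd45a fell. By edgeR's quasi-likelihood test with Benjamini-Hochberg adjustment over 12156 genes, 4 of the 8 tested genes were called higher (adjusted p of at most 0.05 and a change of at least 2-fold) against 5.03% of all genes, and 0 were called lower against 4.07% (1 gene was lower at an unadjusted p under 0.05, and DESeq2 called 0 lower). The log2 fold change was 2.21 ± 0.15 (SE) for Ier3 (adjusted p = 4.46e-11), 2.11 ± 0.09 for Gadd45g (2.22e-14), 1.74 ± 0.16 for Btg2 (6.19e-09) and 1.47 ± 0.11 for Cdkn1a (5.82e-10). Gadd45a fell by 0.57 on the log2 scale (SE 0.12, adjusted p = 0.000364), and its libraries did not overlap those of Vehicle. For Btg1 the change was 0.36 ± 0.07 (adjusted p = 0.000293), or 0.05 (0.645) when libraries were scaled by their total counts alone, a scaling that shifted the median gene by -0.31. Plk2 (0.31, 95% interval from -0.01 to 0.62, adjusted p = 0.0929) and Gadd45b (-0.25, from -0.63 to 0.13, adjusted p = 0.270) did not pass the test. In all, 6 of 8 passed the test, against 51.8% of all genes. Plk3 was 25.5-fold higher. The median log2 fold change of the 8 tested genes was 0.92, against -0.02 over all genes. In bulk RNA, more cells that express a gene and more RNA per cell cannot be told apart. Brown adipocyte markers summed to 14679 to 15690 CPM in ISO and 11277 to 12174 CPM in Vehicle. From Vehicle to ISO, mean Ppargc1a went from 75.7 to 1080 CPM, Lipe from 1804 to 2764 and Fabp4 from 2603 to 3663. Adipoq (3593 and 3404) and Pparg (537 and 481) were not higher in ISO. The sum thus mixes markers that rose with ISO and markers that did not, and is no measure of cell composition. Any part of cell composition in these changes was not tested.

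SR-3420 against Vehicle gave the response to a ligand that activates lipolysis without a receptor signal, with the same Vehicle libraries as controls. Btg2, Ier3, Cdkn1a and Gadd45g were called higher, so 4 of 8 were called against 3.97% of all genes, and 0 were called lower against 2.37% (0 at an unadjusted p under 0.05, and 0 in DESeq2). The log2 fold change was 2.69 ± 0.16 for Btg2 (adjusted p = 1.59e-11), 2.03 ± 0.15 for Ier3 (2.67e-10), 1.56 ± 0.11 for Cdkn1a (3.87e-10) and 1.40 ± 0.09 for Gadd45g (2.78e-11). Plk2 rose by 1.00 ± 0.14 (adjusted p = 5.66e-06), a change just under 2-fold that edgeR did not call and DESeq2 did. Btg1 rose by 0.35 ± 0.07 (adjusted p = 0.000367), and by 0.19 (0.0867) on total counts alone. Gadd45a changed by 0.18 (95% interval from -0.06 to 0.42, adjusted p = 0.196) and Gadd45b by 0.31 (from -0.05 to 0.67, adjusted p = 0.147), neither passing the test. In all, 6 of 8 passed the test, against 51.4%. Plk3 was 32.9-fold higher. The median of the 8 tested genes was 1.20, against -0.02 over all genes. Preadipocyte and fibroblast markers summed to 136 to 139 CPM in SR-3420 and 89.6 to 119 CPM in Vehicle. Col1a1 was the largest part of this sum, with a mean of 67.6 CPM in Vehicle and 91.1 in SR-3420. Pdgfra, Dlk1 and Thy1 had higher means in SR-3420, whereas Ly6a (3.93 and 3.59) and Cd34 (0.946 and 0.937) did not. Any part of such cells in these changes was not tested.

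Lipase inhibitors were given without an agent to see whether they acted on these genes by themselves. None of the 8 tested genes was called in edgeR's quasi-likelihood test, where 0.00823% of all genes were called higher and 0.0411% lower, and none passed at an adjusted p of at most 0.05 in edgeR or DESeq2 (0.913% of all genes passed in edgeR). At an unadjusted p under 0.05, 1 gene was higher and 1 lower, Gadd45a and Gadd45g. The largest difference among them was that of Gadd45a, 0.32 ± 0.11 (95% interval from 0.09 to 0.56, adjusted p = 0.235). Gadd45g changed by -0.21 (from -0.40 to -0.02, adjusted p = 0.371). Plk3, which was not tested, was 2.06-fold higher in Lipase Inh. + Vehicle than in Vehicle, 2.28 CPM ± 0.162 against 1.09 ± 0.265 (SD, n = 3). The 2 groups did not overlap, but they rest on only 30, 30 and 38 counts against 16, 18 and 10. How many of all genes separate in this way was not computed, so no effect of the inhibitors on Plk3 is inferred.

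The part of the ISO response that remained with lipases blocked was read from Lipase Inh. + ISO against Lipase Inh. + Vehicle. Gadd45g rose as before, by 2.29 ± 0.09 (adjusted p = 4.70e-15), and Gadd45a fell by 2.46 on the log2 scale (SE 0.13, adjusted p = 6.90e-13). Thus 1 of 8 genes was called higher against 5.43% of all genes, and 1 lower against 7.63%. Cdkn1a rose by 1.00 ± 0.11 (adjusted p = 1.37e-07), just short of the 2-fold limit, and it passed that limit when any 1 of 13 of the 18 libraries was left out. Ier3 rose by 0.73 ± 0.15 (adjusted p = 0.000264). Btg1 fell by 0.34 on the log2 scale (SE 0.07, adjusted p = 0.000378). Btg2 changed by 0.14 (95% interval from -0.18 to 0.46, adjusted p = 0.460), Plk2 by 0.32 (from 0.01 to 0.62, adjusted p = 0.0695) and Gadd45b by -0.24 (from -0.60 to 0.13, adjusted p = 0.263). Thus 5 of 8 passed, against 57.7% of all genes. Plk3, which was not tested, was 1.26-fold lower, at 1.28 to 2.03 CPM in Lipase Inh. + ISO and 2.19 to 2.47 CPM in Lipase Inh. + Vehicle. These levels rest on only 22, 14 and 40 counts against 30, 30 and 38, and are given as a description.

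With SR-3420 in the presence of inhibitors, Plk2 alone among the tested genes passed the test, 1 of 8 against 4.34% of all genes. It rose by 1.16 ± 0.15 (adjusted p = 3.23e-05) and was the 1 gene of 8 called higher, against 0.214% of all genes, and 0 were called lower against 0.0823% (0 at an unadjusted p under 0.05, and 0 in DESeq2). Without the shallow replicate 2, the change was 1.15 (adjusted p = 0.000209). Gadd45g changed by 0.31 ± 0.09 (95% interval from 0.12 to 0.50, adjusted p = 0.0612), and by 0.37 (0.0358) without that library. Cdkn1a (95% interval from -0.24 to 0.23), Btg2 (-0.05, from -0.38 to 0.28) and Ier3 (0.14, from -0.20 to 0.48) did not pass. Plk3 was 1.29-fold higher, and its range overlapped that of Lipase Inh. + Vehicle.

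**Figure D2:**
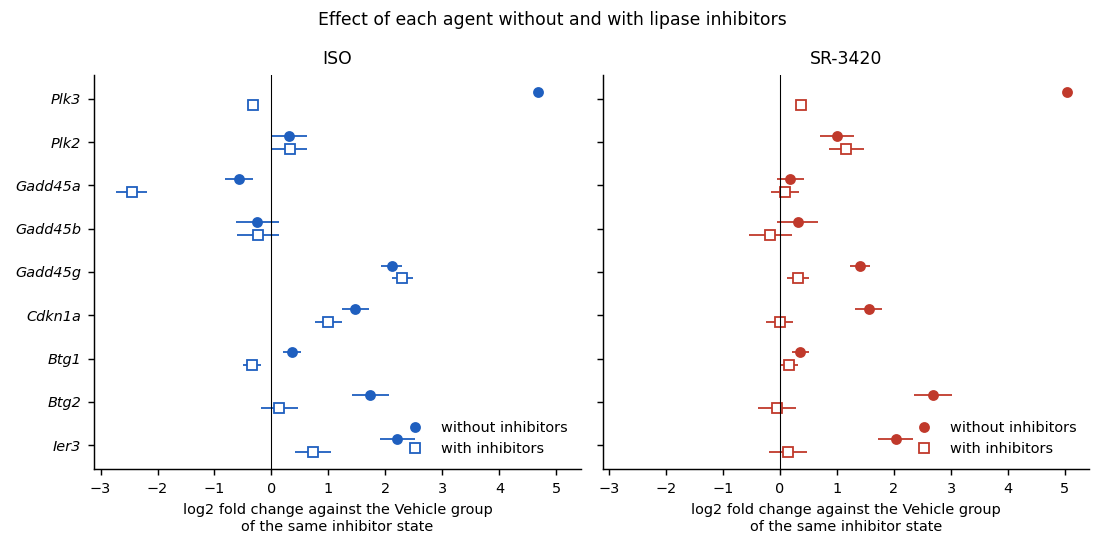
Log2 fold change of each gene for ISO (left) and SR-3420 (right) against the Vehicle group of the same inhibitor state, without (filled circles) and with (open squares) lipase inhibitors, with lines for 95% intervals, which are not drawn for Plk3. With inhibitors, SR-3420 left a change of 1.16 in Plk2 and at most 0.37 in the other genes, whereas ISO left 2.29 in Gadd45g and -2.46 in Gadd45a.

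Whether the inhibitors altered a response was tested as an interaction, which is the log2 fold change in inhibitor-treated cells less that in untreated ones. For ISO, 3 of 8 genes were called lower, Gadd45a, Btg2 and Ier3, against 4.71% of all genes, and 0 were called higher against 2.18% (0 at an unadjusted p under 0.05, and 0 in DESeq2). The interaction was -1.60 ± 0.22 (SE) for Btg2 (adjusted p = 7.84e-06) and -1.48 ± 0.21 for Ier3 (1.08e-05), so both inductions were smaller with inhibitors. For Gadd45a it was -1.88 ± 0.18 (adjusted p = 3.49e-08), which here means a deeper fall. Btg1, which rose without inhibitors and fell with them, had an interaction of -0.70 ± 0.10 (adjusted p = 1.78e-05). Its rise without inhibitors did not hold in edgeR on total counts alone (0.05, adjusted p = 0.645). That of Cdkn1a was -0.48 ± 0.16 (adjusted p = 0.0261), but -0.39 (0.0755) on total counts alone, and it did not pass in 5 of the 18 fits that left out 1 library: without ISO replicate 2 it was -0.34 (0.0951), without Vehicle replicate 3 -0.36 (0.0786), without Lipase Inh. + ISO replicate 3 -0.39 (0.0853) or replicate 1 -0.46 (0.0562), and without Lipase Inh. + Vehicle replicate 2 -0.40 (0.0737). With the replicate number as a block in edgeR, the interaction of Cdkn1a was -0.48 (SE 0.09, adjusted p = 8.80e-05). Gadd45g (0.18, 95% interval from -0.07 to 0.43, adjusted p = 0.276), Plk2 (0.01, from -0.43 to 0.45) and Gadd45b (0.01, from -0.52 to 0.54) did not pass. The 5 genes that passed stand beside 31.4% of all genes.

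For SR-3420, the interaction called Btg2, Ier3, Cdkn1a and Gadd45g lower, which makes 4 of 8 genes against 2.42% of all genes, and 0 were called higher against 1.4% (again 0 at an unadjusted p under 0.05 and 0 in DESeq2). It was -2.74 ± 0.22 for Btg2 (adjusted p = 1.58e-08), -1.89 ± 0.22 for Ier3 (1.63e-06), -1.56 ± 0.16 for Cdkn1a (3.73e-07) and -1.09 ± 0.13 for Gadd45g (1.86e-06). These are the 4 genes called higher with SR-3420, and without the shallow library all 4 interactions were still called. The rise of Plk2 was not altered by a detectable amount (0.16, 95% interval from -0.26 to 0.59, adjusted p = 0.597). Btg1 (-0.19, adjusted p = 0.174), Gadd45b (-0.48, 0.171) and Gadd45a (-0.09, 0.716) did not pass. The 4 genes that passed stand beside 27.3% of all genes. The 2 interactions share the Vehicle and Lipase Inh. + Vehicle libraries. For Plk3 they were -5.00 and -4.67.

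**Figure D3:**
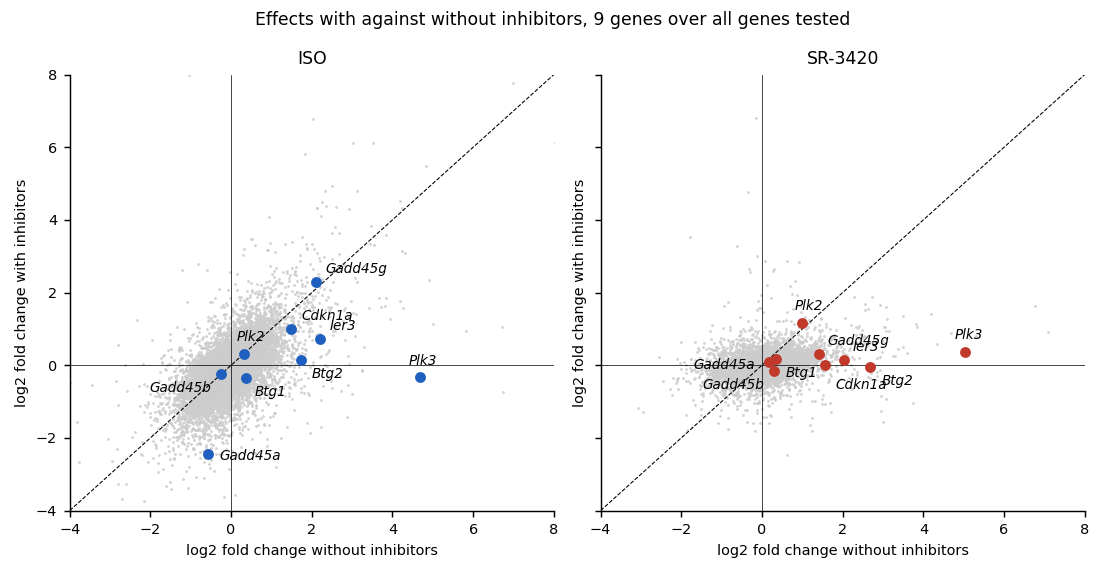
Log2 fold change with inhibitors against that without, for ISO (left) and SR-3420 (right), with the 9 genes as large points over the 12156 genes tested in grey, of which 7 lay outside the axes, and a dashed line where both are equal. Plk2 under SR-3420 and Gadd45g under ISO lie near the dashed line, whereas Plk3, Btg2 and Ier3 lie below it for both agents.

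The 2 agents were compared directly. Without inhibitors, none of the 8 genes was called by edgeR or DESeq2 (1.23% of all genes were called higher and 0.814% lower with ISO). In smaller differences, 5 genes passed edgeR's test, against 29.7% of all genes. Gadd45g was higher with ISO than with SR-3420 by 0.71 ± 0.08 (adjusted p = 1.37e-06). Btg2 (-0.95 ± 0.15, adjusted p = 6.47e-05), Gadd45a (-0.75 ± 0.12, 5.49e-05) and Plk2 (-0.69 ± 0.14, 0.000915) were lower with ISO. Gadd45b was lower by a smaller margin (-0.56 ± 0.18, adjusted p = 0.0234), and no longer passed without ISO replicate 1 (-0.42, adjusted p = 0.138) or without any 1 of SR-3420 replicates 1, 2 and 3 (0.0567, 0.0527 and 0.0523). Cdkn1a (-0.09, 95% interval from -0.32 to 0.15), Btg1 (0.01, from -0.15 to 0.16) and Ier3 (0.18, from -0.09 to 0.45) did not pass. Plk3 was 1.29-fold lower with ISO, with overlapping ranges.

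With inhibitors, 3 of the 8 genes were called between the agents. Gadd45g (1.98 ± 0.09, adjusted p = 6.30e-14) and Cdkn1a (1.00 ± 0.11, 1.53e-07) were called higher with ISO, 2 of 8 against 5.34% of all genes, and Gadd45a (-2.54 ± 0.13, 6.23e-13) was called lower, 1 of 8 against 7.85%. The call of Cdkn1a was at the edge of the 2-fold limit. Without the shallow library, 2 genes were called higher and 1 lower as before, with Cdkn1a at 1.04. Ier3 was higher by 0.59 ± 0.16 (adjusted p = 0.00284), while Plk2 (-0.84 ± 0.14, 3.36e-05) and Btg1 (-0.50 ± 0.07, 4.64e-06) were lower. Btg2 differed by 0.19 (95% interval from -0.14 to 0.52, adjusted p = 0.325). In all, 6 of 8 passed, against 56.9% of all genes.

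The change in this difference between the inhibitor states was tested by a contrast added after the data had been seen. It called Gadd45g (1.27 ± 0.12, adjusted p = 5.91e-08), Btg2 (1.14 ± 0.22, 0.000361) and Cdkn1a (1.09 ± 0.16, 1.70e-05) higher, 3 of 8 against 2.92% of all genes, and Gadd45a (-1.79 ± 0.18, 1.00e-07) lower, 1 of 8 against 4.44%. In all, 5 of 8 passed, against 34.4% of all genes. Without ISO replicate 3, 1 gene in place of 3 was called higher. Leaving out the shallow library kept 3 called higher and 1 lower. Behind these values lay different patterns. The ISO response of Gadd45g was no smaller with inhibitors (2.29 against 2.11) while its SR-3420 response fell from 1.40 to 0.31. For Cdkn1a, 1.00 of 1.47 remained with ISO, and its SR-3420 response went from 1.56 to a value that did not pass. Btg2 retained little of either response (0.14 with ISO and -0.05 with SR-3420), and its call followed from a larger induction by SR-3420 than by ISO without inhibitors. For Ier3 the difference did not pass (0.41, 95% interval from -0.01 to 0.84, adjusted p = 0.127).

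Across the 18 libraries, the genes whose log2 CPM followed that of Plk3 most closely, of 11045 compared, were Dusp8 (Pearson r = 0.982), Col6a3 (0.979), Fgf21 (0.978), Aldh18a1 (0.977) and Zbtb21 (0.975). Dusp8, a phosphatase of MAP kinases, went from 5.70 CPM ± 0.647 in Vehicle to 53.2 ± 7.10 in ISO and 54.2 ± 7.32 in SR-3420, and was at 6.63 ± 0.794 and 8.85 ± 0.205 with inhibitors (SD, n = 3). Fgf21, a stress-induced hormone, went from 0.403 to 42.9 and 44.9 CPM and was at 1.24 and 1.84 CPM with inhibitors. Among the 9 genes, Btg2 (r = 0.941) and Ier3 (0.920) were nearest to Plk3, followed by Cdkn1a (0.783), Btg1 (0.781), Gadd45g (0.551), Plk2 (0.372), Gadd45a (0.155) and Gadd45b (0.0851). Gadd45a and Gadd45g ran in opposite directions (r = -0.709), and Gadd45g ran closest to Cdkn1a (0.904). These correlations are descriptions over libraries that share groups, treatments and depth, and the order near the top changed when the means of the 6 groups were used, which kept 1 of the 5 genes.

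Related genes were taken from lists, and their counts of calls stand beside 5.03% and 4.07% of all genes called higher and lower with ISO and 3.97% and 2.37% with SR-3420. Of 9 tested genes named for growth arrest or DNA damage, 2 were called higher and 2 lower with ISO (median log2 fold change -0.25, against -0.02 over all genes), and 3 higher and 1 lower with SR-3420 (median -0.09). Ppp1r15a, the stress-induced phosphatase subunit also called Gadd34, rose by 1.67 ± 0.08 with ISO (adjusted p = 5.43e-13) and by 2.37 ± 0.08 with SR-3420 (4.03e-15). Ddit3, which encodes the transcription factor CHOP, rose by 1.87 ± 0.07 with SR-3420 (adjusted p = 2.15e-14), and with ISO plus inhibitors it fell by 1.47 on the log2 scale (SE 0.08, adjusted p = 5.78e-13). Without inhibitors it was at 138 CPM ± 11.1 in Vehicle and higher in ISO, at 220 ± 13.7 (SD, n = 3). With inhibitors it was at 157 ± 12.1 CPM under Vehicle and 254 ± 8.48 under SR-3420. Ddit4, an inhibitor of mTORC1, rose with ISO by 2.31 ± 0.12 without inhibitors (adjusted p = 1.44e-12) and by 2.98 ± 0.13 with them (2.50e-14). Gas1, a membrane protein first found in growth-arrested cells, fell by 1.17 with ISO and by 1.37 with SR-3420 on the log2 scale (SE 0.15 each, adjusted p = 8.07e-07 and 1.11e-07).

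Of 18 other p53 targets that were tested, 1 was called higher and 4 lower with ISO (median -0.16), 1 higher and 2 lower with SR-3420 (median -0.15), and 0 higher and 5 lower with ISO in the presence of inhibitors (median -0.43), where 5.43% of all genes were called higher and 7.63% lower. Sesn2, a sestrin that restrains mTORC1, rose by 1.72 ± 0.08 with SR-3420 (adjusted p = 5.62e-13). It was also the gene called higher with ISO, at 92.9 CPM ± 6.99 against 40.9 ± 0.885 in Vehicle (SD, n = 3). Its relative Sesn1 fell by 1.54 with ISO and by 1.19 with SR-3420 on the log2 scale (SE 0.11 and 0.10, adjusted p = 9.70e-11 and 3.84e-09). Trp53inp1 fell from 453 CPM ± 40.1 in Vehicle to 145 ± 7.51 in ISO, and from 597 ± 48.8 in Lipase Inh. + Vehicle to 111 ± 19.6 in Lipase Inh. + ISO (SD, n = 3). Bbc3, which encodes the cell death protein PUMA, was at 20.2 CPM ± 5.03 in Vehicle and 8.48 ± 1.09 in ISO, and at 24.3 ± 6.72 and 4.46 ± 0.527 with inhibitors. In both ISO and SR-3420 without inhibitors, the p53 targets Cdkn1a and Btg2 were thus higher than in Vehicle while Trp53inp1 and Sesn1 were lower.

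Among the closest relatives, both tested TOB genes rose with SR-3420. Tob1 rose from 542 CPM ± 9.04 to 1164 ± 36.0 with SR-3420 (SD, n = 3) and to 1266 ± 17.3 with ISO, by edgeR's quasi-likelihood test with an adjusted p of 4.93e-12 and 6.33e-13. Tob2 rose by 1.05 ± 0.11 with SR-3420 (adjusted p = 7.39e-08). Ier2 rose from 46.6 CPM ± 2.67 to 197 ± 9.93 with SR-3420 (log2 fold change 2.08 ± 0.08, adjusted p = 4.51e-15) and was at 46.8 ± 3.20 CPM with inhibitors. Of 6 tested relatives among the CDK inhibitors, 0 were called higher and 1 lower with ISO. The called gene, Cdkn1b, encodes p27 and fell by 1.18 on the log2 scale (SE 0.11, adjusted p = 5.54e-09), opposite to Cdkn1a. None of the 9 genes of the CCR4-NOT complex and its partners and neither tested relative of the Plk genes was called with ISO or SR-3420.

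Of 11 tested kinases linked to GADD45 proteins, 0 were called higher and 1 lower with ISO, and 0 either way with SR-3420. In the presence of inhibitors, where ISO called 5.43% of all genes higher and 7.63% lower, it called 1 of these kinases higher and 2 lower, including Map2k4, a kinase of JNK, which went from 94.3 CPM ± 3.84 to 235 ± 14.3, and Map2k6, a kinase of p38, which went from 3.59 ± 1.18 to 0.813 ± 0.251 CPM. Of 30 cell cycle genes, 1 was called higher with each agent and 0 lower. That gene was Ccnd2, a D-type cyclin, at 332 CPM in Vehicle, 666 in ISO and 711 in SR-3420. With ISO and inhibitors, 0 cell cycle genes were called higher and 2 lower against those same shares of all genes, Cdk6 and Cdc25b, with log2 fold changes of -1.73 ± 0.20 and -1.06 ± 0.12. With SR-3420 and inhibitors, 0 genes of any of these lists were called in edgeR's test, where 0.214% of all genes were called higher and 0.0823% lower, so that lists of this length would hold few calls or none.

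**Figure D4:**
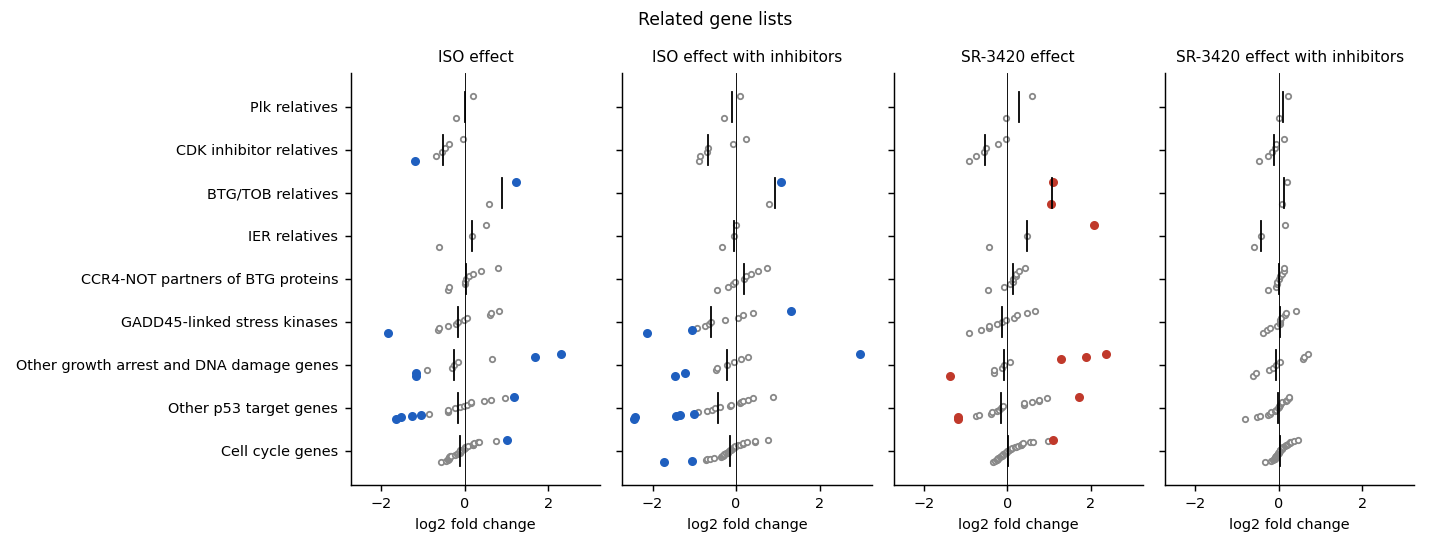
Log2 fold changes of the tested genes of 9 related lists for ISO and SR-3420 without and with lipase inhibitors, with filled points for called genes, open points for the others and a vertical tick for each list's median. With SR-3420 and inhibitors, where 0.214% of all genes were called higher and 0.0823% lower, no filled point is seen, and growth arrest genes and p53 targets have called genes on both sides of 0 with ISO.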

How the data were processed

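RNA-seq libraries were prepared by the authors with TruSeq chemistry from BAT-LgT brown adipocytes, 3 per group in 6 groups. The authors aligned the reads with STAR (2.4.2a in the submitters' processing notes), used HOMER and counted reads per RefSeq gene of mouse build mm9. The deposited table holds raw counts of 20295 genes in 18 libraries, not normalised and not filtered, with 0 columns of other samples. Deposited gene positions and counted lengths were used for coordinates (starts raised to count from 1) and RPKM. Whether the counting used strand is not given in the sources used here. The study's methods say that HOMER kept a single read for each position and read length, a limit that would compress the counts of abundant genes. The deposited counts reached 8.24 per base of counted length among the 9 genes (Cdkn1a) and 320 per base among all genes of at least 200 bases, and whether the limit applied to this table was not settled here. No molecular identifiers are described.

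Groups and replicate numbers came from the sample titles. The 9 genes and the related lists were chosen with earlier results of these data known, so no pattern here is independent of them. Counts were analysed with edgeR 4.0.16 in R 4.3.3: filterByExpr (minimum count 10, minimum total count 15), TMM scaling and glmQLFit and glmQLFTest over all 18 libraries with a mean per group (12 residual degrees of freedom). Benjamini-Hochberg adjustment ran over the 12156 genes that passed the filter. A called gene had an adjusted p of 0.05 or less and a log2 fold change of 1 or more in size. The SE is the fold change divided by the square root of F. CPM values use TMM-scaled library sizes. Correlations used log2 CPM (prior count 2) of genes averaging 1 or more on that scale. Replicates were compared pairwise over genes, and no pair was alike within counting noise (chi-square per degree of freedom from 3.61). From each list at most the 3 called genes with the largest change per comparison were eligible to be named, along with the 5 genes most correlated with Plk3. Promoter windows were read from the mm9 genome at the starts in the table. The fit was tested on simulated counts.

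Alternatives were DESeq2 1.42.0, RLE factors, total counts alone, no filter, a stricter filter (50 counts in 3 libraries), only the groups compared, the replicate number as a block and each library left out in turn. The contrast of the inhibitors' effect between agents was added after the data were seen.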

Additional observations from a re-analysis of the deposited data

Results flagged for a closer look

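The effect of ISO differed between cells with and without lipase inhibitors, by the interaction test, for Gadd45a (-1.88 ± 0.18, SE, on the log2 scale), Btg2 (-1.60 ± 0.22), Ier3 (-1.48 ± 0.21), Btg1 (-0.70 ± 0.10) and Cdkn1a (-0.48 ± 0.16). In edgeR's quasi-likelihood test the adjusted p was 3.49e-08, 7.84e-06, 1.08e-05, 1.78e-05 and 0.0261 in that order. In TMM-scaled levels, Btg1 was higher with ISO than with Vehicle in all 3 libraries without inhibitors and lower in all 3 with them. Gadd45a was lower in both settings and more so with inhibitors. Since the interaction test had picked both genes on these libraries, the patterns add no further support, and their share over all genes was not computed.

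The effect of SR-3420 differed in the same test for Btg2 (-2.74 ± 0.22, adjusted p = 1.58e-08), Ier3 (-1.89 ± 0.22, 1.63e-06), Cdkn1a (-1.56 ± 0.16, 3.73e-07) and Gadd45g (-1.09 ± 0.13, 1.86e-06). In each of these 4 genes the libraries of Lipase Inh. + SR-3420 lay below those of SR-3420 without overlap. The test had picked these genes on the same libraries, so this adds no further support. The share of all genes with such a separation was not computed.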

How the results depend on the processing

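Over 7 other settings and 18 left-out libraries, no effect of the 8 tested genes reversed among those that passed the test. Of 80 effects, 69 kept their side of the threshold in every setting. With inhibitors, ISO called 2 genes higher in place of 1 without a filter on low counts, and 1 to 2 when a library was left out. For ISO minus SR-3420, 1 gene in place of 0 was called lower on total counts alone, and 0 to 1 with a library left out. With inhibitors, that difference called 1 gene in place of 2 higher on total counts alone, with the stricter filter, with only the groups compared and with the replicate block, and 1 to 2 with a library left out. The added contrast called 1 to 3 genes higher, with 1 without ISO replicate 3. Cdkn1a, whose change lay at the 2-fold limit, was the gene in question in the counts with inhibitors.

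Scaling by total counts alone moved the median gene by -0.31 for ISO, -0.16 for SR-3420, -0.23 for ISO with inhibitors, -0.15 for ISO minus SR-3420 and -0.13 for that difference with inhibitors. The share of calls that were higher went from 55.3% to 22.2% for ISO, from 62.6% to 40.1% for SR-3420, from 41.6% to 23.4% for ISO with inhibitors and from 72.2% to 59.3% for SR-3420 with inhibitors. It went from 31.6% to 41.6% for the ISO interaction, from 36.6% to 48.6% for that of SR-3420, from 60.1% to 37.8% for ISO minus SR-3420 and from 40.5% to 28.7% with inhibitors. On that scaling Gadd45b fell with ISO (-0.56, adjusted p = 0.0157) and with ISO and inhibitors (-0.46, 0.0375).

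Same-numbered libraries deviated together for numbers 2 and 3 (mean r = 0.150 and 0.190 across genes), with r over 0.1 in 12 and 15 of 15 pairs. For number 1 the mean was -0.0118, with 1 of 15 pairs over 0.1, so pairing was not established. Pairs with different numbers had a mean of -0.0548, with 8 of 90 over 0.1. The replicate block let Gadd45g pass with SR-3420 and inhibitors (0.32, adjusted p = 0.0249; 0.31 and 0.0335 in DESeq2) and Ier3 in the added contrast (0.37, 0.0332), and moved no other count by over 1.5 times than the one named above. SR-3420 with inhibitors called 36 genes in all, 59 without the filter and 23 with the stricter one. Depth limits Plk3 in the low groups, with counts down to 10.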
